A study of Mus musculus with 8 samples.

Results

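The genes described here encode the nuclear subunits of oxidative phosphorylation, the chain of enzymes in the inner mitochondrial membrane that turns the energy of food into ATP. They were chosen by symbol: names that begin with Ndufa, Ndufb, Ndufc, Ndufs or Ndufv and a digit, Sdha to Sdhd, names that begin with Uqcr, Cyc1, Cox with a digit of 4 to 8, and names that begin with Atp5. Of the 24369 gene symbols counted, 85 had such a name, and 80 of these reached at least 10 counts in 2 or more of the 8 libraries. The 80 members comprise 35 genes of complex I, 4 of complex II, 9 of complex III, 15 of complex IV and 17 of complex V. Complexes are assigned by symbol throughout. Complex V thus includes Atp5s and Atp5sl, which are not subunits of it, and complex I includes Ndufa4, now regarded as a complex IV subunit. The other 5 symbols, Cox7b2, Cox8b, Cox8c, Ndufa4l2 and Ndufs5, had 0 counts in every library.

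The libraries come from dendritic cells sorted from tumours of MC38-EGFP cells, a mouse colon cancer line that carries enhanced green fluorescent protein (EGFP), in mice labelled WT. The 4 groups were EGFP-positive cDC1, EGFP-negative cDC1, EGFP-positive cDC2 and EGFP-negative cDC2, with 2 libraries each, replicates 1 and 2. All share the tumour and the genotype, and the labels give neither an age, a drug, nor the surface markers of the sort. Whether replicates came from separate animals is not stated, so a p-value here reflects no more than how far these libraries scatter, and that scatter may be technical.

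Library totals ran between 17869441 and 22195681 counts. The ribosomal RNA gene Rn45s took 19.4% to 35.6% of the counts of a library. Between replicates, the median absolute log2 difference over the 80 members was 0.52 in EGFP-positive cDC1, 0.20 in EGFP-negative cDC1, 0.26 in EGFP-positive cDC2 and 0.17 in EGFP-negative cDC2, and over all 11394 genes tested it was 1.07, 0.62, 0.63 and 0.52 in the same order. EGFP-positive cDC1 was the least reproducible group, and 13 members lay more than 2-fold apart between its replicates. Summed over 8 markers of cDC1, the level was 1301 and 2106 CPM (counts of a gene over the library total, on a fixed scale) in EGFP-positive cDC1, 2636 and 2327 in EGFP-negative cDC1, 312 and 116 in EGFP-positive cDC2, and 380 and 275 CPM in EGFP-negative cDC2. Summed over 11 macrophage and monocyte markers, it was 388 and 11194 CPM in EGFP-positive cDC1, 2084 and 2547 in EGFP-negative cDC1, 34787 and 17978 in EGFP-positive cDC2, and 38300 and 30616 CPM in EGFP-negative cDC2. Mertk, one of the 11, was at 0 in all 4 cDC1 libraries. Fcgr1, Ly6c2 and Ccr2 overlapped between the subsets, and Ly6c2 was highest in EGFP-positive cDC1 replicate 2 (260 CPM). Summed over 7 markers of cDC2, the level was 6.74 and 326 CPM in EGFP-positive cDC1, 175 and 283 in EGFP-negative cDC1, 759 and 678 in EGFP-positive cDC2, and 809 and 839 CPM in EGFP-negative cDC2. The cDC2 libraries were higher in the sum of macrophage markers and also in this sum, mostly through Sirpa and Itgam, which were higher in every cDC2 library. Cd209a, Clec10a, Irf4, Mgl2 and Clec4a4 overlapped between the subsets, and Mgl2 was highest in EGFP-negative cDC1 replicate 2 (220 CPM). Summed over 6 markers shared by conventional dendritic cells, mostly Cst3 and MHC class II genes, the level was 40201 and 57330 CPM in EGFP-positive cDC1, 63988 and 70424 in EGFP-negative cDC1, 14362 and 7391 in EGFP-positive cDC2, and 18170.2 and 15785 CPM in EGFP-negative cDC2. Of these 6, Flt3 and Zbtb46 reached at most 10.8 and 1.04 CPM in the cDC2 libraries, and the label cDC2 is used below as the name of the sort gate. All CPM are scaled by the trimmed mean of M values (TMM), which sets the libraries to a common level over most genes.

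As background, complex I takes electrons from NADH and complex II from succinate, and both hand them to ubiquinone. Complex III passes them on to cytochrome c and complex IV to oxygen, and complexes I, III and IV pump protons that drive ATP synthesis by complex V. Complex II is made wholly from nuclear genes and is also an enzyme of the tricarboxylic acid cycle, whereas the other complexes combine nuclear subunits with a few encoded by mitochondrial DNA. In dendritic cells, activation through pattern receptors is known to move metabolism from respiration towards glycolysis. Nuclear subunit genes are known for promoters with sites for the factors NRF1, GABP (an ETS family member), YY1 and ERR alpha.

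The promoters of 4 members, chosen by results given below, are shown as the 250 bases before the RefSeq gene start (GRCm38.p6, 5′ to 3′ on the gene's own strand, which is the minus strand for all 4). Capitals mark the motif letters found: GCGCANGCG for NRF1, CCGGAAG for ETS, AANATGGCG for YY1 and TCAAGGTCA for ERR, each a short core of the known site, searched on both strands with N for any base. Ndufa4 (chr6:11907451-11907700) and Ndufb11 (chrX:20617620-20617869) are the members that the alternative tests DESeq2 and voom both called for cDC1 over cDC2 over both gates, where edgeR called neither. DESeq2 called 2 members there (2.50%, against 10.2% of all genes) and voom 4 (5.0%, against 7.65%). Sdha (chr13:74350241-74350490) and Sdhd (chr9:50603850-50604099) are the members whose 4 EGFP-positive libraries all lay below the 4 EGFP-negative ones (2.50%, against 2.0% of all genes).
Ndufa4: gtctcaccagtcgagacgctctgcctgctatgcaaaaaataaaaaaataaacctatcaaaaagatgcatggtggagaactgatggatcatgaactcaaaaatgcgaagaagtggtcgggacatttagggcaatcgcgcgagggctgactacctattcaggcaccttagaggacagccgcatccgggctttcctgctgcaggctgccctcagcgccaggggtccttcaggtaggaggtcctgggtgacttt
Ndufb11: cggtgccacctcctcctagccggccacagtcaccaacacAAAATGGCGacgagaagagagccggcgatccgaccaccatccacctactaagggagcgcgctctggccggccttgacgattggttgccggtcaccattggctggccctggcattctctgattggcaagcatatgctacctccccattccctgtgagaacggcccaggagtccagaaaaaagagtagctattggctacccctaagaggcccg
Sdha: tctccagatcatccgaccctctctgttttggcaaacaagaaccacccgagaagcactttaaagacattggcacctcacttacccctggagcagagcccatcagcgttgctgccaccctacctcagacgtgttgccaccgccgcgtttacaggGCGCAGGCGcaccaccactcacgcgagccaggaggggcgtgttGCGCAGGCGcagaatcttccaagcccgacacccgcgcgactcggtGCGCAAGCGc
Sdhd: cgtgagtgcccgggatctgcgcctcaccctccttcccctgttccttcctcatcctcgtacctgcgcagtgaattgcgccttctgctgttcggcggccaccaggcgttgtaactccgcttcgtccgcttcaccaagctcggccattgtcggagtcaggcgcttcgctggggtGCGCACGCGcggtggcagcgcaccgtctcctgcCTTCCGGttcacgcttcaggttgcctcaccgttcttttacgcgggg
Ndufa4 held none of the 4 motifs in this window. Ndufb11 held a YY1 match that starts at −211 from the gene start. Sdha held 3 NRF1 matches, which start at −98, −55 and −10. Sdhd held an NRF1 match at −79 and, on the other strand, an ETS match at −46. Promoters were at hand for 63 members. NRF1 letters were found in 13 of these (20.6%), against 13.2% of the promoters of tested genes and 5.86% of all promoters. ETS letters were found in 12 members (19.0%), against 16.7% of tested genes and 7.83% of all. YY1 letters occurred in 3 members (4.76%), Atp5j, Ndufa7 and Ndufb11, against 2.75% of tested genes and 1.29% of all, and ERR letters in Atp5g3 alone (1.59%), against 0.298% and 0.422%. These are matches of letters and do not show that a factor binds.

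Nearly all subunit genes were read throughout. The level was at least 5 CPM in every library for 74 of the 80 members, and 39 members averaged 100 CPM or more. Only 5 members (6.25%) had 0 counts in some library, against 47.7% of all tested genes. Per kilobase of transcript, the highest mean levels were those of Cox4i1 (671 CPM per kilobase), the main form of the largest nuclear subunit of complex IV, of Atp5b (596), the catalytic beta subunit of ATP synthase, and of Cox5a (431), another complex IV subunit. At the other end stood 4 tissue isoforms of complex IV, described below, and Atp5s and Atp5sl, which carry ATP synthase names but are not subunits of the enzyme. Many subunit genes have processed pseudogenes in the mouse, and how reads that match several copies were counted is not given in the sources used here, so such levels are uncertain.

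Most members had their lowest group mean in EGFP-positive cDC1, and the group that most often held the highest mean was EGFP-negative cDC1. The group with the lowest mean was EGFP-positive cDC1 for 47 members, EGFP-negative cDC1 for 5, EGFP-positive cDC2 for 15 and EGFP-negative cDC2 for 13. Cox6a2 and Cox7a1, at 0 in both cDC1 groups, are counted among the 47. The share of all genes lowest in each group is not given here. The group with the highest mean was EGFP-positive cDC1 for 4 members, EGFP-negative cDC1 for 39, EGFP-positive cDC2 for 30 and EGFP-negative cDC2 for 7. The summed level of all 80 was 9736 and 10002 CPM in EGFP-positive cDC1, 13079 and 12426 in EGFP-negative cDC1, 10916 and 9909 in EGFP-positive cDC2, and 10460 and 10314 CPM in EGFP-negative cDC2. EGFP-negative cDC1 libraries stood above the other 6, and EGFP-positive cDC2 overlapped both EGFP-positive cDC1 and EGFP-negative cDC2. As a share of all counts other than Rn45s, without TMM scaling, the sums were 1.60% and 1.24% in EGFP-positive cDC1, 1.77% and 1.69% in EGFP-negative cDC1, 1.45% and 1.60% in EGFP-positive cDC2, and 1.32% and 1.41% in EGFP-negative cDC2. On that scale EGFP-negative cDC1 was again the highest group, while the means of EGFP-positive cDC1 (1.42%) and EGFP-negative cDC2 (1.36%) were the lowest and their libraries overlapped. In bulk libraries, fewer cells of a type and less RNA per cell cannot be told apart.

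**Figure D1:**
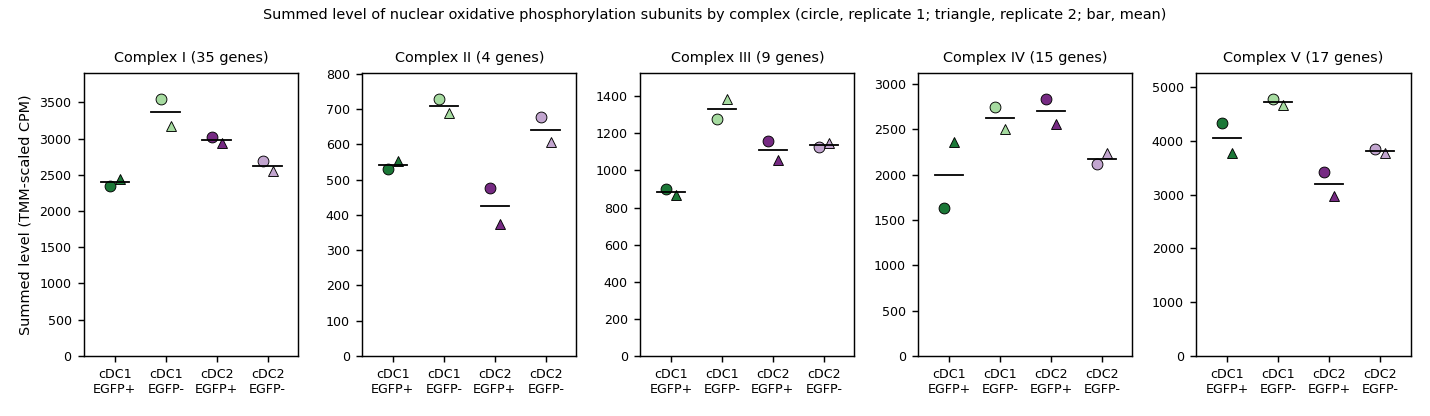
Summed level (TMM-scaled CPM, axis from 0) of the members of each complex in each library, by group. Circles are replicate 1, triangles replicate 2 and bars the mean of the 2 libraries. On this scale both EGFP-negative cDC1 libraries lie above both EGFP-positive cDC1 libraries for all 5 complexes. For complex II the lowest libraries are those of EGFP-positive cDC2 (477 and 374 CPM).

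By complex, the summed level of complex I was 2346 and 2445 CPM in EGFP-positive cDC1, 3549 and 3180 in EGFP-negative cDC1, 3019 and 2942 in EGFP-positive cDC2, and 2695 and 2549 CPM in EGFP-negative cDC2. The 4 groups did not overlap. Complex II summed to 531 and 553 CPM in EGFP-positive cDC1, 729 and 690 in EGFP-negative cDC1, 477 and 374 in EGFP-positive cDC2, and 677 and 607 CPM in EGFP-negative cDC2, so that both EGFP-positive groups lay below both EGFP-negative groups. Complex III summed to 898 and 868 CPM in EGFP-positive cDC1, 1275 and 1386 in EGFP-negative cDC1, 1161 and 1058 in EGFP-positive cDC2, and 1125 and 1148 CPM in EGFP-negative cDC2. Here the cDC2 groups overlapped and EGFP-positive cDC1 was lowest. Complex IV summed to 1627 and 2363 CPM in EGFP-positive cDC1, 2745 and 2509 in EGFP-negative cDC1, 2837 and 2565 in EGFP-positive cDC2, and 2116 and 2235 CPM in EGFP-negative cDC2. Its EGFP-positive cDC1 replicates lay far apart. Complex V summed to 4334 and 3773 CPM in EGFP-positive cDC1, 4780 and 4660 in EGFP-negative cDC1, 3421 and 2971 in EGFP-positive cDC2, and 3847 and 3776 CPM in EGFP-negative cDC2, lowest in EGFP-positive cDC2 and highest in EGFP-negative cDC1. The plot of summed levels by complex shows these values. These orders hold for TMM-scaled sums, and the TMM factors of EGFP-positive cDC1 were 1.14 and 0.798. As a share of counts other than Rn45s, the groups of complex I overlapped, and for complex III EGFP-positive cDC1 overlapped EGFP-negative cDC2. EGFP-positive cDC1 replicate 1 then exceeded both EGFP-negative cDC2 libraries for complex II (0.0873%, against 0.0852% and 0.0831%). For complex V it exceeded both EGFP-negative cDC1 libraries (0.713%, against 0.648% and 0.633%).

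EGFP-positive cDC1 were compared with EGFP-negative cDC1 first, which asks how cDC1 that carry tumour-derived EGFP differ from those that do not. Most subunit genes had lower values in EGFP-positive cDC1: the log2 fold change was below 0 for 67 members and above 0 for 11 (Cox6a2 and Cox7a1 had no counts in either group), with a median of −0.54, against −0.04 over all genes tested. The median was −0.55 for complex I, −0.46 for complex II, −0.88 for complex III, −0.51 for complex IV and −0.43 for complex V. In 52 members (65.0%) both EGFP-positive libraries lay below both EGFP-negative ones, against 24.0% of all genes tested, and in 1 member (1.25%), Ndufa9, both lay above, against 11.5%. With edgeR's quasi-likelihood test and Benjamini-Hochberg adjustment over all 11394 genes, 0 of the 80 members passed an adjusted p of 0.05, and 0% of all genes did. An unadjusted p under 0.05 was reached by 13 members (16.2%), against 12.7% of all genes, and all 13 were lower, against 8.39% of all genes. DESeq2 called 1 member (1.25%), Uqcr10, against 11.6% of all genes, and voom called 0, against 0%. Without EGFP-positive cDC1 replicate 1, edgeR called 2 (2.50%), Uqcrc2 and Uqcrfs1, against 6.15% of all genes, and without replicate 2 it called 1 (1.25%), Uqcr10, against 8.41%. The median was −0.40 without replicate 1, against −0.22 over all genes, and −0.69 without replicate 2, against −0.38. The EGFP-positive cDC1 libraries detected the fewest genes, 8553 and 8208, against 10096 and 9602 in EGFP-negative cDC1 and 10301 to 11922 in cDC2. Their replicates also differed in summed macrophage markers, 388 and 11194 CPM, mostly through Lyz2 (290 and 8773 CPM). Adgre1 alone went the other way, at 41.7 and 0.421 CPM. The replicates differed in Rn45s as well, 30.7% and 35.6%, and the part of these in the result was not tested.

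In cDC2 the fold changes between the EGFP gates ran mostly the other way. The log2 fold change of EGFP-positive over EGFP-negative cDC2 was above 0 for 57 members and below 0 for 23, with a median of 0.22, against 0.08 over all genes tested. The median was 0.23 for complex I, −0.55 for complex II, 0.18 for complex III, 0.32 for complex IV and 0.24 for complex V, so the median of complex II alone was below 0. The summed level of complex V, given above, was also lower in EGFP-positive cDC2 without overlap. In 37 members (46.2%) both EGFP-positive libraries lay above both EGFP-negative ones, against 22.6% of all genes, and in 13 (16.2%) both lay below, against 19.2%. By edgeR 0 of 80 members passed the adjusted threshold, and 0% of all genes did. An unadjusted p under 0.05 was reached by 6 members (7.50%) and 2.63% of all genes, DESeq2 called 1 member (1.25%), Sdha, against 0.965% of all genes, and voom called 0, against 0.0176%. Without EGFP-positive cDC2 replicate 1 the median over members was 0.026, against 0.0 over all genes. The replicates of EGFP-positive cDC2 differed in summed macrophage markers, 34787 and 17978 CPM, and in Rn45s, 24.8% and 31.4%, and the part of these was not tested.

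The difference between these EGFP contrasts was tested itself, as the interaction of subset and EGFP. Its median over members was −0.71, against −0.20 over all genes, and it was below 0 for 64 members. Without replicate 1 of EGFP-positive cDC1 the medians were −0.67 over members and −0.79 over all genes, and without its replicate 2 they were −0.85 and −0.85. Neither fit kept this gap. They tested 12405 and 12481 genes rather than 11394, so the medians over all genes are not over the same genes. By edgeR 0 of 80 members passed the adjusted threshold, as did 0% of all genes, and DESeq2 and voom also called 0, against 6.27% and 0.00878% of all genes. An unadjusted p under 0.05 was reached by 16 members (20.0%), against 10.4% of all genes, and 15 of the 16 were below 0 (18.8% of members, against 7.17% of all genes). In 31 members (38.8%) the EGFP-positive libraries lay below the EGFP-negative ones in cDC1 and above them in cDC2, without overlap in either, against 6.21% of all genes tested. These 31 comprise 15 genes of complex I, 0 of complex II, 3 of complex III, 5 of complex IV and 8 of complex V, with Atp5s, not a subunit, among the 8. EGFP-positive libraries lay below in both subsets for 5 members (6.25%), Sdha, Sdhd, Uqcrc2, Atp5c1 and Atp5d, against 4.43% of all genes. No member lay above in both or above in cDC1 and below in cDC2, patterns that 2.27% and 2.68% of all genes showed. The map of members by library shows this reversal as pale or blue columns on the left and red columns for EGFP-positive cDC2.

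**Figure D2:**
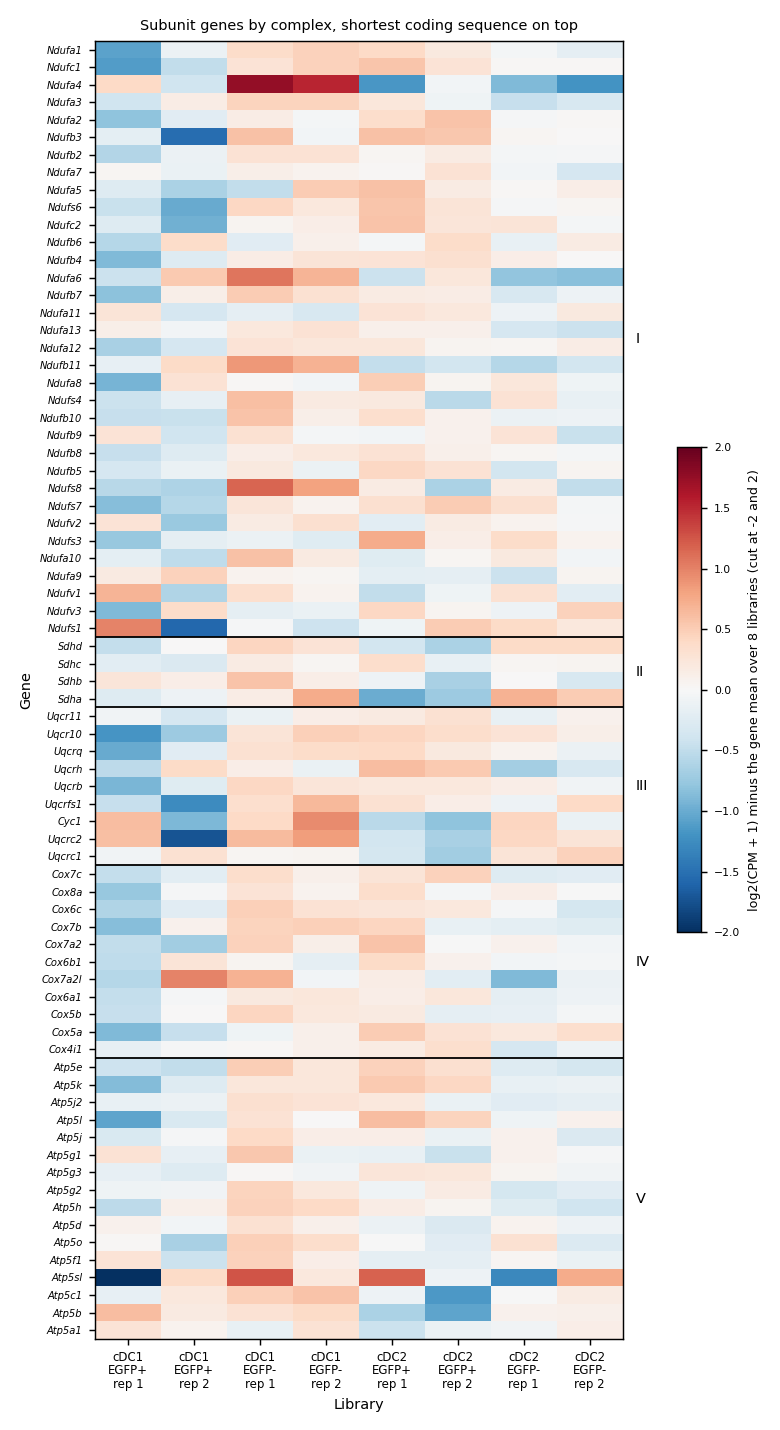
Level of members with a mean of at least 5 CPM in each library, as log2(CPM + 1) minus the gene's mean over the 8 libraries, ordered by complex and, within a complex, from the shortest to the longest coding sequence. EGFP-positive cDC1 columns are mostly blue (below the gene's mean) and EGFP-negative cDC1 columns mostly red, and Ndufa4, Ndufa6 and Ndufb11 are red in EGFP-negative cDC1 and mostly blue in cDC2.

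The subsets were then compared within each gate. These contrasts share their libraries with the EGFP contrasts above. Among EGFP-negative cells, cDC1 had the higher value for 62 members and the lower for 18, with a median log2 fold change of 0.29, against −0.04 over all genes. In 42 members (52.5%) both cDC1 libraries lay above both cDC2 libraries, against 21.9% of all genes, and in 8 (10%) both lay below, against 26.5%. The medians were 0.22 for complex I, 0.01 for complex II, 0.33 for complex III, 0.29 for complex IV and 0.37 for complex V. By edgeR 0 of 80 members passed the adjusted threshold, against 0.36% of all genes, and an unadjusted p under 0.05 was reached by 7 members (8.75%), against 9.58% of all genes. DESeq2 and voom each called 3 members (3.75%), Ndufa4, Ndufa6 and Ndufb11, all higher in cDC1, against 7.35% and 4.63% of all genes. With edgeR, Ndufa4 and Ndufa6 were called without replicate 1 of EGFP-positive cDC1 (2.50%, against 3.75% of all genes), without its replicate 2 (2.50%, against 3.31%) and in a fit of only the 4 libraries compared (2.53%, against 2.89%). The subsets differ in summed macrophage and monocyte markers, 2084 and 2547 CPM in EGFP-negative cDC1 against 38300 and 30616 CPM in EGFP-negative cDC2. The part of these markers in the result was not tested.

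Among EGFP-positive cells, the cDC1 values were below those of cDC2 for 60 members and above for 20, with a median log2 fold change of −0.39, close to the −0.30 of all genes tested. In 36 members (45.0%) both cDC1 libraries lay below both cDC2 libraries, against 33.2% of all genes, and in 9 (11.2%) both lay above, against 13.7%. The medians were −0.42 for complex I, 0.42 for complex II, −0.57 for complex III, −0.51 for complex IV and −0.16 for complex V. By edgeR 0 of 80 members passed the adjusted threshold, against 0.228% of all genes, and an unadjusted p under 0.05 was reached by 14 members (17.5%), against 15.9% of all genes, and 13 of the 14 were lower (16.2% of members, against 11.1% of all genes). DESeq2 called 6 (7.50%), of which Atp5b was higher in cDC1 and Atp5l, Cox5a, Ndufc1, Ndufs7 and Uqcr10 were lower, against 13.9% of all genes, and voom called 0, against 0.193%. Without EGFP-positive cDC1 replicate 1 edgeR called Ndufb3 (1.25%, against 6.83% of all genes), and without replicate 2 it called Atp5b, Atp5l and Uqcr10 (3.75%, against 10.2%). The median was −0.16 without EGFP-positive cDC2 replicate 1, against −0.08 over all genes, −0.33 without EGFP-positive cDC1 replicate 1, against −0.93, and −0.65 without its replicate 2, against −0.85.

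Over both gates the median difference between subsets was close to 0. cDC1 over cDC2 had a median of −0.05, against −0.28 over all genes, and 0 of 80 members passed the threshold with edgeR, against 1.32% of all genes. An unadjusted p under 0.05 was reached by 7 members (8.75%), against 13.5% of all genes. DESeq2 called Ndufa4 and Ndufb11 (2.50%, against 10.2% of all genes), and voom called these with Ndufa6 and Cox7a1 (5.0%, against 7.65%). Without replicate 1 of EGFP-positive cDC1 the median was 0.042 and without replicate 1 of EGFP-positive cDC2 it was 0.070. In 3 members (3.75%), Atp5b, Ndufb11 and Sdhb, all 4 cDC1 libraries lay above all 4 cDC2 libraries, against 3.96% of all genes, and in 3 (3.75%), Cox5a, Cox7a1 and Ndufs3, all lay below, against 8.56%. Cox7a1 met the count rule for members only through cDC2 libraries. EGFP-positive over EGFP-negative cells of both subsets had a median of −0.19, against −0.05 over all genes. Here edgeR, DESeq2 and voom called 0 members, against 0%, 1.61% and 0.0351% of all genes, and 2 members (2.50%), Sdha and Sdhd, had an unadjusted p under 0.05, against 5.22% of all genes. These were also the only members whose 4 EGFP-positive libraries all lay below the 4 EGFP-negative ones (2.50%, against 2.0% of all genes), and 0 members lay above in this way, against 0.965%.

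Complex I is an L-shaped enzyme whose core subunits carry its flavin and iron-sulphur clusters, with many accessory subunits around them. Ndufs8, a core subunit which holds a pair of iron-sulphur clusters, was at 46.7 and 45.0 CPM in EGFP-positive cDC1, 157 and 122 in EGFP-negative cDC1, 78.2 and 44.2 in EGFP-positive cDC2, and 77.8 and 48.7 CPM in EGFP-negative cDC2. EGFP-negative cDC1 stood above every other library. In cDC1 the fold change of EGFP-positive over EGFP-negative cells was −1.60 ± 0.44 (log2, SE, edgeR adjusted p = 0.235), which did not pass. Ndufa9, an accessory subunit of the matrix arm, measured 146 and 177 CPM in EGFP-positive cDC1, 135 and 132 in EGFP-negative cDC1, 112 and 113 in EGFP-positive cDC2, and 95.6 and 134 CPM in EGFP-negative cDC2. It is the member whose EGFP-positive cDC1 libraries both lay above the EGFP-negative ones. Ndufb9, an accessory subunit of the membrane arm, stood at 212 and 133 CPM in EGFP-positive cDC1, 217 and 171 in EGFP-negative cDC1, 169 and 188 in EGFP-positive cDC2, and 212 and 129 CPM in EGFP-negative cDC2. All groups overlapped.

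The member with the smallest p over the 7 contrasts was Ndufa4 (chromosome 6, 11900292 to 11907497, minus strand, GRCm38), whose protein was first assigned to complex I and is now regarded as a subunit of complex IV. Ndufa4 had 81.2 and 46.5 CPM in EGFP-positive cDC1, 210.3 and 179 in EGFP-negative cDC1, 26.8 and 59.1 in EGFP-positive cDC2, and 32.8 and 26.3 CPM in EGFP-negative cDC2. EGFP-negative cDC1 stood well above all other groups, and no library of the other groups exceeded 81.2 CPM. Among EGFP-negative cells the fold change of cDC1 over cDC2 was 2.72 ± 0.52 (log2, SE, edgeR adjusted p = 0.114), and over both gates it was 1.65 ± 0.52 (log2, SE, edgeR adjusted p = 0.215). In cDC1 the fold change of EGFP-positive over EGFP-negative cells was −1.61 ± 0.50 (log2, SE, edgeR adjusted p = 0.285). None of the 3 passed in edgeR. Ndufa6, an accessory subunit of the LYR family in the matrix arm, was at 71.8 and 141 CPM in EGFP-positive cDC1, 205 and 156 in EGFP-negative cDC1, 72.0 and 114 in EGFP-positive cDC2, and 55.7 and 54.4 CPM in EGFP-negative cDC2. EGFP-negative cDC1 was the highest group, although its lower replicate was close to the higher EGFP-positive one. Its fold change of cDC1 over cDC2 among EGFP-negative cells was 1.71 ± 0.44 (log2, SE, edgeR adjusted p = 0.225). Ndufb11, an X-linked accessory subunit of the membrane arm, measured 72.0 and 105 CPM in EGFP-positive cDC1, 148 and 131 in EGFP-negative cDC1, 57.9 and 62.6 in EGFP-positive cDC2, and 54.1 and 62.5 CPM in EGFP-negative cDC2. All 4 cDC1 libraries lay above all 4 cDC2 libraries, as in 3.96% of all genes tested. The fold change of cDC1 over cDC2 was 0.91 ± 0.29 (log2, SE, edgeR adjusted p = 0.221) over both gates and 1.26 ± 0.35 (log2, SE, edgeR adjusted p = 0.281) among EGFP-negative cells.

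**Figure D3:**
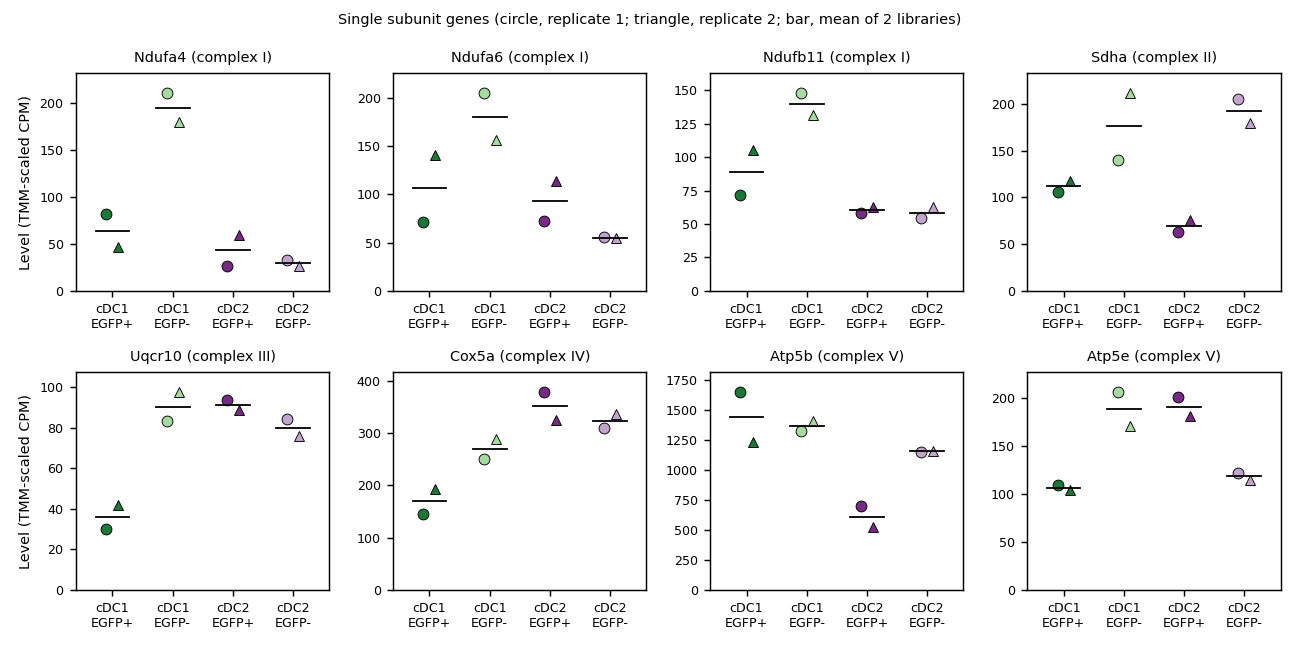
Level (TMM-scaled CPM, axis from 0) of 8 members in each library by group. Circles are replicate 1, triangles replicate 2 and bars the mean of the 2 libraries. Ndufa4 and Ndufb11 are highest in EGFP-negative cDC1, Sdha is lowest in EGFP-positive cDC2 (63.2 and 75.9 CPM), Uqcr10 and Cox5a are lowest in EGFP-positive cDC1, and Atp5b and Atp5e take different orders of the groups.

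Complex II, succinate dehydrogenase, had a TMM-scaled summed level below that of both EGFP-negative groups in both EGFP-positive groups. Its flavoprotein Sdha and iron-sulphur protein Sdhb form the catalytic head, and Sdhc and Sdhd anchor it in the membrane. Sdha stood at 106 and 118 CPM in EGFP-positive cDC1, 140.4 and 212 in EGFP-negative cDC1, 63.2 and 75.9 in EGFP-positive cDC2, and 205 and 180.0 CPM in EGFP-negative cDC2. Both EGFP-positive groups lay below both EGFP-negative groups, and EGFP-positive cDC2 was lowest. The fold change of EGFP-positive over EGFP-negative cells was −1.47 ± 0.34 (log2, SE, edgeR adjusted p = 1) in cDC2 and −1.06 ± 0.29 (log2, SE, edgeR adjusted p = 0.951) over both subsets. It did not pass in edgeR, and DESeq2 called it in cDC2, as it did 0.965% of all genes. Sdhd had 86.3 and 122 CPM in EGFP-positive cDC1, 162 and 146 in EGFP-negative cDC1, 92.8 and 77.5 in EGFP-positive cDC2, and 158 and 158 CPM in EGFP-negative cDC2. Here too the EGFP-positive libraries all lay below the EGFP-negative ones, as in 2.0% of all genes tested. The fold change in cDC2 was −0.89 ± 0.32 (log2, SE, edgeR adjusted p = 1). Sdhb was at 259 and 238 CPM in EGFP-positive cDC1, 324 and 238 in EGFP-negative cDC1, 203 and 138 in EGFP-positive cDC2, and 219.8 and 174 CPM in EGFP-negative cDC2. Its 4 cDC1 libraries lay above its 4 cDC2 libraries, by a narrow margin, as in 3.96% of all genes tested. Sdhc measured 78.8 and 75.1 CPM in EGFP-positive cDC1, 103 and 93.8 in EGFP-negative cDC1, 118 and 82.3 in EGFP-positive cDC2, and 94.5 and 95.3 CPM in EGFP-negative cDC2. All groups other than EGFP-positive cDC1 overlapped, and EGFP-positive cDC1 was lowest. The ratio of Sdha to Sdhc in CPM, not corrected for length, was 1.35 and 1.57 in EGFP-positive cDC1, 1.36 and 2.26 in EGFP-negative cDC1, 0.538 and 0.923 in EGFP-positive cDC2, and 2.17 and 1.89 in EGFP-negative cDC2. It was lowest in EGFP-positive cDC2.

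Complex III combines a pair of core proteins, the redox subunits cytochrome c1 (Cyc1) and the Rieske iron-sulphur protein (Uqcrfs1), and small subunits around them. The small subunits and the core proteins showed different orders of the groups. Summed over the 5 small subunits Uqcrb, Uqcrh, Uqcrq, Uqcr10 and Uqcr11, the level was 334 and 499.6 CPM in EGFP-positive cDC1, 639 and 627 in EGFP-negative cDC1, 709.8 and 680.5 in EGFP-positive cDC2, and 521 and 514 CPM in EGFP-negative cDC2. EGFP-positive cDC1 was lowest and EGFP-positive cDC2 highest. Summed over the core proteins Uqcrc1 and Uqcrc2 it was 311 and 258 CPM in EGFP-positive cDC1, 329 and 350.5 in EGFP-negative cDC1, 214 and 171 in EGFP-positive cDC2, and 341 and 362 CPM in EGFP-negative cDC2. For these EGFP-positive cDC2 was lowest. Uqcr10, a small subunit of the membrane part, stood at 29.9 and 41.8 CPM in EGFP-positive cDC1, 83 and 97.5 in EGFP-negative cDC1, 93.4 and 88.6 in EGFP-positive cDC2, and 84.3 and 75.7 CPM in EGFP-negative cDC2. EGFP-positive cDC1 lay well below the other 6 libraries. The fold change of EGFP-positive over EGFP-negative cDC1 was −1.33 ± 0.36 (log2, SE, edgeR adjusted p = 0.227), and that of cDC1 over cDC2 among EGFP-positive cells was −1.34 ± 0.36 (log2, SE, edgeR adjusted p = 0.155). Neither passed in edgeR. Uqcrfs1 had 97.9 and 56.2 CPM in EGFP-positive cDC1, 172 and 212 in EGFP-negative cDC1, 168 and 149 in EGFP-positive cDC2, and 126 and 179 CPM in EGFP-negative cDC2. EGFP-positive cDC1 was again lowest. Its fold change of EGFP-positive over EGFP-negative cDC1 was −1.32 ± 0.38 (log2, SE, edgeR adjusted p = 0.267). Uqcrb, a small subunit that helps to bind ubiquinone, was at 82.7 and 133 CPM in EGFP-positive cDC1, 211 and 187 in EGFP-negative cDC1, 183 and 182 in EGFP-positive cDC2, and 173 and 151 CPM in EGFP-negative cDC2. EGFP-positive cDC1 was lowest here too. Uqcrh, the hinge protein between cytochrome c1 and cytochrome c, measured 93.2 and 175 CPM in EGFP-positive cDC1, 146 and 122 in EGFP-negative cDC1, 206 and 192 in EGFP-positive cDC2, and 83.4 and 107 CPM in EGFP-negative cDC2. EGFP-positive cDC2 was highest. Uqcrc1 stood at 179 and 233 CPM in EGFP-positive cDC1, 194 and 195 in EGFP-negative cDC1, 147 and 116 in EGFP-positive cDC2, and 224 and 259 CPM in EGFP-negative cDC2. EGFP-positive cDC2 was lowest and EGFP-positive cDC1 overlapped the EGFP-negative groups. Cyc1 had 156 and 53.9 CPM in EGFP-positive cDC1, 134 and 196 in EGFP-negative cDC1, 69.5 and 57.6 in EGFP-positive cDC2, and 137 and 92.1 CPM in EGFP-negative cDC2. The EGFP-positive cDC1 replicates lay far apart, so no order can be read for that group. The same holds for Uqcrc2, named after its values were seen, at 132 and 25.4 CPM in EGFP-positive cDC1.

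Complex IV, cytochrome c oxidase, has ubiquitous subunits and tissue isoforms. Cox4i1, the regulatory subunit with the highest level per kilobase, was at 454 and 499.9 CPM in EGFP-positive cDC1, 517 and 543 in EGFP-negative cDC1, 573 and 641 in EGFP-positive cDC2, and 403 and 472 CPM in EGFP-negative cDC2. Its EGFP-positive cDC2 libraries were the highest. Cox5a, a matrix-facing subunit, measured 144 and 194 CPM in EGFP-positive cDC1, 250.0 and 288 in EGFP-negative cDC1, 378 and 325 in EGFP-positive cDC2, and 309 and 336 CPM in EGFP-negative cDC2. EGFP-positive cDC1 was lowest, and all 4 cDC1 libraries lay below all 4 cDC2 libraries, as in 8.56% of all genes tested. The fold change of cDC1 over cDC2 among EGFP-positive cells was −1.06 ± 0.29 (log2, SE, edgeR adjusted p = 0.169). Cox8a, a small membrane subunit, stood at 134 and 224 CPM in EGFP-positive cDC1, 273 and 237 in EGFP-negative cDC1, 289.7 and 220.3 in EGFP-positive cDC2, and 249 and 226 CPM in EGFP-negative cDC2. Cox6a1, the widely expressed form of subunit 6a, had 163 and 225 CPM in EGFP-positive cDC1, 262 and 266 in EGFP-negative cDC1, 249 and 267 in EGFP-positive cDC2, and 201 and 213 CPM in EGFP-negative cDC2. For both, EGFP-positive cDC1 replicate 1 was the lowest library. Cox6b1, the form of subunit 6b found in most tissues, was at 162 and 278 CPM in EGFP-positive cDC1, 239.6 and 203 in EGFP-negative cDC1, 301 and 247 in EGFP-positive cDC2, and 223 and 226 CPM in EGFP-negative cDC2. The same library was lowest. Cox7a2, the widely expressed form of subunit 7a, measured 85.0 and 73.6 CPM in EGFP-positive cDC1, 166 and 130.1 in EGFP-negative cDC1, 178 and 119.8 in EGFP-positive cDC2, and 128 and 115 CPM in EGFP-negative cDC2. Both EGFP-positive cDC1 libraries were lowest. Cox7a2l, which joins complexes III and IV into supercomplexes, stood at 111 and 329 CPM in EGFP-positive cDC1, 269 and 159 in EGFP-negative cDC1, 183 and 143 in EGFP-positive cDC2, and 88.8 and 153 CPM in EGFP-negative cDC2. Its EGFP-positive cDC1 replicates lay far apart.

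The tissue isoforms of complex IV were scarce. Cox7a1, the form of heart and skeletal muscle, had 0 and 0 CPM in EGFP-positive cDC1, 0 and 0 in EGFP-negative cDC1, 1.20 and 1.19 in EGFP-positive cDC2, and 1.62 and 1.60 CPM in EGFP-negative cDC2. It was read in every cDC2 library and in none of the 4 cDC1 libraries, where a count of 0 allows up to 0.168 CPM before TMM scaling (3 counts, counting error only). Cox6a2, the muscle form of subunit 6a, was at 0 and 0 CPM in EGFP-positive cDC1, 0 and 0 in EGFP-negative cDC1, 1.04 and 1.98 in EGFP-positive cDC2, and 0 and 0.623 CPM in EGFP-negative cDC2. It was likewise at 0 in all cDC1 libraries. Cox7a1 and Cox6a2 met the rule of at least 10 counts in 2 libraries only through cDC2 libraries. Their place among the members thus depends on cDC2, and their difference between the subsets is not independent of that rule. Cox4i2, a form induced by low oxygen and known from lung, measured 0 and 6.32 CPM in EGFP-positive cDC1, 0 and 0 in EGFP-negative cDC1, 3.96 and 0 in EGFP-positive cDC2, and 1.35 and 5.07 CPM in EGFP-negative cDC2. Cox6b2, a form known from testis, stood at 0 and 2.81 CPM in EGFP-positive cDC1, 7.29 and 0.233 in EGFP-negative cDC1, 3.70 and 1.29 in EGFP-positive cDC2, and 2.80 and 0.579 CPM in EGFP-negative cDC2. Both varied widely between replicates, in both subsets. Their partners Cox4i1, Cox6a1, Cox6b1 and Cox7a2 were at 73.6 CPM or more in every library.

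Complex V, ATP synthase, consists of a catalytic F1 head, a rotating c-ring, a peripheral stalk and small membrane subunits. Its parts did not share one order of the groups. Summed over the F1 subunits Atp5a1, Atp5b, Atp5c1, Atp5d and Atp5e, the level was 2874 and 2452 CPM in EGFP-positive cDC1, 2725 and 2929 in EGFP-negative cDC1, 1779 and 1463 in EGFP-positive cDC2, and 2303 and 2399 CPM in EGFP-negative cDC2. EGFP-positive cDC2 was lowest, and both cDC1 groups overlapped. Over the membrane subunits Atp5j2, Atp5k and Atp5l it was 159 and 209.9 CPM in EGFP-positive cDC1, 300.01 and 272 in EGFP-negative cDC1, 337 and 291 in EGFP-positive cDC2, and 221 and 236 CPM in EGFP-negative cDC2. There EGFP-positive cDC1 was lowest and EGFP-positive cDC2 overlapped EGFP-negative cDC1. The peripheral stalk, Atp5f1, Atp5h, Atp5j and Atp5o, summed to 957 and 811 CPM in EGFP-positive cDC1, 1321 and 1125 in EGFP-negative cDC1, 953 and 883 in EGFP-positive cDC2, and 989.7 and 817 CPM in EGFP-negative cDC2, highest in EGFP-negative cDC1. Atp5b, the catalytic subunit, had 1646 and 1226 CPM in EGFP-positive cDC1, 1324 and 1408 in EGFP-negative cDC1, 698 and 519 in EGFP-positive cDC2, and 1149 and 1159 CPM in EGFP-negative cDC2. All cDC1 libraries lay above all cDC2 libraries, as in 3.96% of all genes tested. The fold change of cDC1 over cDC2 among EGFP-positive cells was 1.24 ± 0.29 (log2, SE, edgeR adjusted p = 0.127), and that of EGFP-positive over EGFP-negative cDC2 was −0.92 ± 0.29 (log2, SE, edgeR adjusted p = 1). Neither passed in edgeR, and DESeq2 called the subset difference, as it did for 13.9% of all genes. Atp5e, the epsilon subunit of the central stalk of F1, was at 109 and 104 CPM in EGFP-positive cDC1, 206 and 170.1 in EGFP-negative cDC1, 200.3 and 181 in EGFP-positive cDC2, and 122 and 114 CPM in EGFP-negative cDC2. It was lower in EGFP-positive than in EGFP-negative cDC1 and higher in EGFP-positive than in EGFP-negative cDC2. The interaction of subset and EGFP was −1.52 ± 0.41 (log2, SE, edgeR adjusted p = 0.364), which did not pass. The ratio of Atp5b to Atp5e in CPM, not corrected for length, was 15.1 and 11.8 in EGFP-positive cDC1, 6.44 and 8.28 in EGFP-negative cDC1, 3.49 and 2.87 in EGFP-positive cDC2, and 9.44 and 10.2 in EGFP-negative cDC2. It ordered the groups without overlap, EGFP-positive cDC1 at the top and EGFP-positive cDC2 at the bottom. Atp5b and Atp5e are the complex V members of smallest p, so this order is not independent of that choice. For Atp5b to Atp5l the top and bottom groups were the same. Its EGFP-negative groups overlapped, at 9.94 and 12.9 in cDC1 and 11.2 and 10.1 in cDC2. For Atp5b to Atp5a1 EGFP-positive cDC2 was lowest and the other groups overlapped. The share of other gene pairs with such an order is not given here.

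Atp5a1, the alpha subunit that alternates with the beta subunit in the F1 head, measured 574 and 497 CPM in EGFP-positive cDC1, 428 and 579.8 in EGFP-negative cDC1, 350.2 and 433 in EGFP-positive cDC2, and 450.1 and 522 CPM in EGFP-negative cDC2. EGFP-positive cDC2 held the lowest library, and the other groups overlapped. Atp5f1, the b subunit of the stalk, stood at 512 and 316 CPM in EGFP-positive cDC1, 585 and 464 in EGFP-negative cDC1, 376 and 375 in EGFP-positive cDC2, and 435 and 387 CPM in EGFP-negative cDC2. The c-ring protein is encoded by 3 genes whose mature products are the same. Atp5g1 had 168 and 123 CPM in EGFP-positive cDC1, 201 and 126 in EGFP-negative cDC1, 124 and 101 in EGFP-positive cDC2, and 146 and 135 CPM in EGFP-negative cDC2. Atp5g2 was at 57.5 and 58.3 CPM in EGFP-positive cDC1, 83.7 and 70.9 in EGFP-negative cDC1, 57.5 and 68.6 in EGFP-positive cDC2, and 47.9 and 52.3 CPM in EGFP-negative cDC2. Atp5g3 measured 118 and 109 CPM in EGFP-positive cDC1, 134 and 125 in EGFP-negative cDC1, 156 and 154 in EGFP-positive cDC2, and 137 and 126 CPM in EGFP-negative cDC2. Together the 3 summed to 344 and 291 CPM in EGFP-positive cDC1, 418 and 322 in EGFP-negative cDC1, 338 and 323 in EGFP-positive cDC2, and 331 and 313 CPM in EGFP-negative cDC2, and EGFP-negative cDC1 replicate 1 alone stood above the rest. Atp5sl, now called Dmac2, an assembly factor of complex I and no ATP synthase subunit, stood at 0.0875 and 6.46 CPM in EGFP-positive cDC1, 12.6 and 5.64 in EGFP-negative cDC1, 11.9 and 4.31 in EGFP-positive cDC2, and 1.35 and 8.59 CPM in EGFP-negative cDC2. Its values were low and scattered.

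The size of the protein went along with the fold changes. Many of the members that differed least between EGFP-positive and EGFP-negative cDC1 have long coding sequences, and many of those with the lowest fold changes have short ones. Coding length here is that of the principal transcript in GENCODE M21. In cDC1 the median log2 fold change of EGFP-positive over EGFP-negative cells was −0.77 for 21 members with a coding length under 300 bases, −0.64 for 15 of 300 to under 400, −0.42 for 29 of 400 to under 800 and −0.03 for 15 of 800 bases or more. All tested genes of the same lengths had medians of −0.28, −0.44, −0.18 and 0.0. In cDC2 the medians of the members were 0.41, 0.31, 0.20 and −0.35 over the same lengths, against 0.33, 0.24, 0.03 and 0.05 for all genes. Spearman's rho of fold change and coding length over 75 members with a mean of at least 5 CPM was 0.36 in cDC1 and −0.67 in cDC2, and over 7504 tested genes of that level it was 0.06 in both. These correlations run across genes of the same libraries, and genes are not independent replicates, so they are given as descriptions with no p. In cDC2, the long members at the low end were Sdha, Atp5b, Uqcrc1 and Uqcrc2, and 2 of 15 members of 800 bases or more had a fold change above 0, against 35 of 36 members under 400 bases. Among all tested genes, it was above 0 for 169 of 225 under 300 bases and 216 of 332 of 300 to under 400. For those of 800 bases or more it was above 0 for 4176 of 8075.

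**Figure D4:**
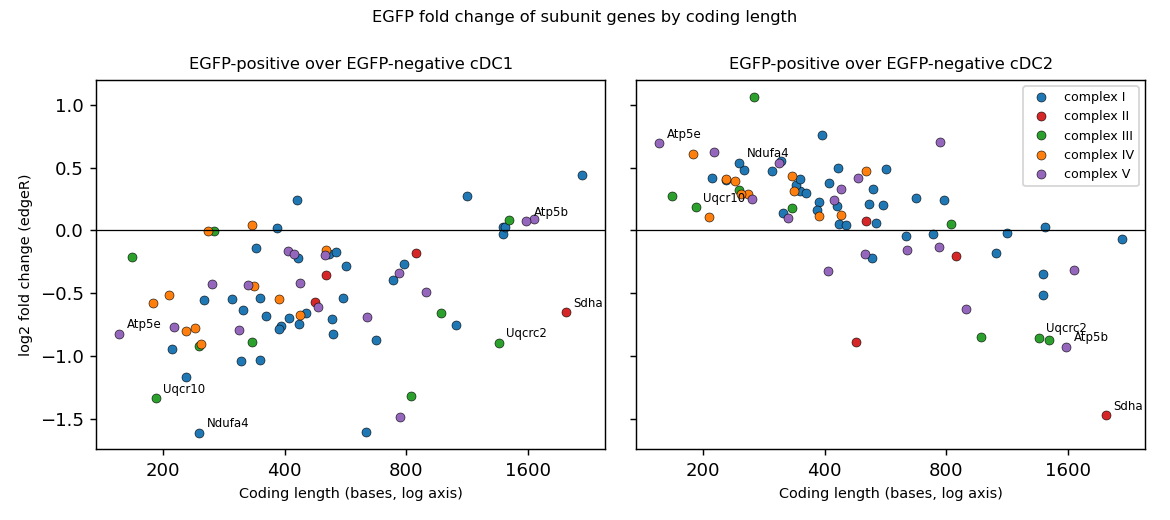
Log2 fold change of EGFP-positive over EGFP-negative cells (edgeR) for 75 members against coding length in bases (log axis), in cDC1 (left) and cDC2 (right), coloured by complex. In cDC2 the points fall from above 0 for short coding sequences to below 0 for long ones (rho −0.67), and in cDC1 most short genes lie below 0 and the long ones around 0 (rho 0.36).

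The neighbouring pathways were read in the same fits. For EGFP-positive over EGFP-negative cDC1, the median log2 fold change was −0.42 over 77 mitochondrial ribosomal proteins, −0.24 over 43 assembly factors, 0.13 over 19 genes of the tricarboxylic acid cycle and 1.5 over 17 genes of glycolysis. For EGFP-positive over EGFP-negative cDC2, these medians were 0.11, 0.30, −0.50 and −0.78 in the same order, against 0.08 over all genes. edgeR called 0 genes of these lists in either EGFP contrast, while an unadjusted p under 0.05 was reached by 7, 2, 3 and 10 genes in cDC1 (9.09%, 4.65%, 15.8% and 58.8% of the lists, against 12.7% of all genes) and by 0, 0, 2 and 7 genes in cDC2 (0%, 0%, 10.5% and 41.2%, against 2.63%). In EGFP-negative cells, cDC1 over cDC2 had medians of 0.27, 0.42, −0.24 and −2.0. Here 3 of the 17 glycolysis genes passed, against 0.36% of all genes, all lower in cDC1: Tpi1 (triose phosphate isomerase), Slc16a3 (a lactate exporter) and Pkm (pyruvate kinase). In EGFP-positive cells the medians were −0.28, −0.13, 0.82 and 0.62, and 1 glycolysis gene passed, against 0.228% of all genes, Pfkp, a phosphofructokinase, higher in cDC1. Over both gates Pfkp and Gpd2, a glycerol 3-phosphate dehydrogenase that feeds electrons to ubiquinone, passed as higher in cDC1. Gpd2 had 178 and 328 CPM in EGFP-positive cDC1, 139 and 108 in EGFP-negative cDC1, 48.0 and 47.7 in EGFP-positive cDC2, and 48.0 and 56.1 CPM in EGFP-negative cDC2. Of 14 regulators of mitochondrial biogenesis tested, 0 passed with edgeR in any of the 7 contrasts, against 0% to 1.32% of all genes. Between 0 and 3 had an unadjusted p under 0.05 (0% to 21.4%, against 2.63% to 15.9% of all genes). The count of 3 (21.4%) was for cDC1 over cDC2 in EGFP-positive cells, against 15.9% of all genes. Symbols of mitochondrial DNA genes were not analysed here.

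**Figure D5:**
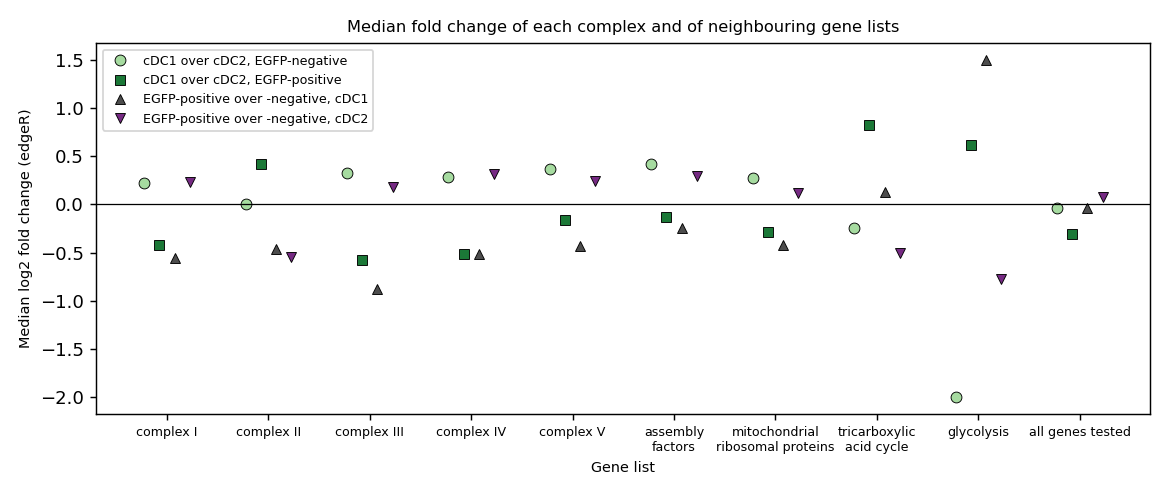
Median log2 fold change (edgeR) of each complex, of 4 neighbouring gene lists and of all genes tested, in 4 contrasts. Complexes I, III, IV and V lie below 0 for EGFP in cDC1 and above 0 for EGFP in cDC2, complex II lies below 0 in both (−0.46 and −0.55), and glycolysis lies at 1.5 and −0.78.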

How the data were processed

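RNA of sorted cells was turned into cDNA by a published low-input method and into libraries with a KAPA kit, per the labels' protocols. The deposited table holds raw read counts per gene symbol for 8 libraries, and 0 columns were without a sample. Trimmomatic 0.39, STAR 2.7.5c, Cufflinks 2.2.1 and the mm10 build are named in the submitters' processing notes. Which program counted the reads, with which annotation and strand setting, is not given in the sources used here.

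edgeR 4.0.16 (R 4.3.3) tested the counts of the 11394 genes kept by filterByExpr, after TMM scaling, with its robust quasi-likelihood F test and Benjamini-Hochberg adjustment over all of them (threshold 0.05). One model with a mean per group gave 5 contrasts, and an additive model of subset and EGFP gave 2. Each standard error is the fold change divided by the root of F. Common dispersion was 1.28 (coefficient of variation 1.13). The steps were tested on simulated data. Alternatives were DESeq2 1.42.0, limma 3.58.1 voom with library weights, RLE scaling, other filters, subsets of libraries, a replicate block and leaving out each library. With a library left out, filterByExpr kept 12112 to 12481 genes. Counts of members without overlap were recomputed under other scalings chosen after seeing the data. Gene coordinates and coding lengths are from GENCODE M21 (GRCm38), which held all 80 members, and promoters from RefSeq.

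Members, neighbouring gene lists and the naming rule were chosen with earlier results of these data known. In each complex the rule names the 3 members of highest mean CPM, the 2 of smallest p over the 7 contrasts and the 1 with the largest range between group means (mean of at least 5 CPM), and always the isoform pairs and Sdha to Sdhd. Of these, 1 gene is not reported here. Other members named by their values, such as Ndufs8, Ndufs7, Ndufc1, Ndufb3, Atp5l, Atp5c1 and Atp5d, were chosen after these were seen.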

Additional observations from a re-analysis of the deposited data

Results flagged for a closer look

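The summed level of complex I moved in opposite directions with EGFP in the cDC1 and cDC2 gates: the log2 ratio of the mean of the EGFP-positive libraries to that of the EGFP-negative libraries was −0.49 in cDC1 and 0.19 in cDC2. Every EGFP-positive cDC1 library lay below both EGFP-negative ones and every EGFP-positive cDC2 library lay above both EGFP-negative ones. The summed level of complex IV did the same, with log2 ratios of −0.40 in cDC1 and 0.31 in cDC2. For these sums the difference between cDC1 and cDC2 was not tested.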

How the results depend on the processing

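With edgeR 0 of 80 members passed in each of the 7 contrasts. DESeq2 called 2 members for subset over both gates, 3 for subset in EGFP-negative cells, 6 for subset in EGFP-positive cells, 1 for EGFP in cDC1 and 1 for EGFP in cDC2 (2.50%, 3.75%, 7.50%, 1.25% and 1.25%, against 10.2%, 7.35%, 13.9%, 11.6% and 0.965% of all genes), and voom called 4 and 3 in the first 2 of these (5.0% and 3.75%, against 7.65% and 4.63%). For subset in EGFP-negative cells, no low-count filter gave 1 (1.25%, against 0.807% of all genes) and fitting only the 4 libraries 2 (2.53%, against 2.89%). Leaving out each library gave 0 to 2 there, 0 to 3 for subset in EGFP-positive cells, 0 to 2 for EGFP in cDC1 and 0 elsewhere. The median over members turned sign with voom for subset over both gates (0.11) and EGFP over both subsets (0.047). For subset in EGFP-positive cells it was −0.31 with DESeq2, −0.31 with RLE scaling and −0.26 with a filter of 10 CPM, for EGFP in cDC1 −0.42 with DESeq2 and with RLE, and for the interaction −0.55 with both and −0.58 with that filter. The cause was not tested. RLE scaling moved the median of all genes to −0.20 for subset in EGFP-positive cells, against −0.30 with TMM, and to −0.06 for the interaction, against −0.20. Leaving out each library gave medians of −0.17 to 0.070 for subset over both gates, −0.29 to −0.059 for EGFP over both subsets, 0.21 to 0.32 for subset in EGFP-negative cells, −0.65 to −0.16 for subset in EGFP-positive cells, −0.69 to −0.40 for EGFP in cDC1, 0.026 to 0.26 for EGFP in cDC2 and −0.85 to −0.52 for the interaction. The 4 counts without overlap that were recomputed (52 members lower with EGFP in cDC1, 37 higher with EGFP in cDC2, 42 higher in EGFP-negative cDC1 than cDC2, and 31 lower with EGFP in cDC1 and higher in cDC2) stayed within 1.5 times under the other scalings. The count of 31 became 25 with RLE. Without single libraries it was 31 to 40. At a fixed scaling, leaving out a library can only keep or raise such a count, so that range does not check it. Shares of all genes under these settings are not given here. Other counts without overlap were not recomputed. The titles give replicate 1 of every group one code and replicate 2 another, and do not say whether the codes are animals, so pairing is not known. Correlations of same-numbered deviations between groups ran between −0.22 and 0.04 over all genes and between −0.40 and 0.43 over members. With the replicate block 0 members passed in each contrast. Of all genes, 0.72% passed for subset over both gates, 0.0263% for subset in EGFP-negative cells and 0% in the other contrasts. The median over members with the block was −0.54 for EGFP in cDC1 and 0.23 for EGFP in cDC2. The median standard error of a log2 fold change over members was 0.36 for EGFP in cDC1 and in cDC2 and 0.51 for the interaction.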
